A study of Mus musculus with 6 samples.

Results

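A set of 10 genes of endothelial cells and of the blood-nerve barrier was followed in sciatic nerves at postnatal day 4 (P4). The genes were chosen by name: *Pecam1*, *Kdr*, *Cldn5*, *Cldn1*, *Ocln*, *Tjp1*, *Slc2a1*, *Mfsd2a*, *Abcb1a* and *Plvap*, 10 of the 59485 genes in the deposited table. All 10 were found by symbol and all 10 passed the filter on low values. The study took sciatic nerves from 3 control animals, which the labels call wild-type, and from 3 *Ht-PA-Cre; Adar1fl/fl;R26R* mutants, with 1 RNA-seq library per animal. In the methods of the study, animals called wild-type lack Cre but carry the R26R tracer and a floxed *Adar1* allele, in 1 or 2 copies, while heterozygotes with Cre also count among controls elsewhere in the study. The Cre is driven by the human tissue plasminogen promoter, which is active in neural crest cells and their derivatives. Schwann cells come from the neural crest, whereas endothelial cells come from the mesoderm, so the label places the deletion outside the endothelial lineage. The question put to the data was how genes of the vessels and of the barrier differed in nerves labelled as mutant in neural crest derivatives.

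The blood-nerve barrier lies at the endothelium of the vessels inside the nerve and at the perineurium, the layered sheath around each bundle of axons. At both places tight junctions close the gap between neighbouring cells. Barrier endothelium also holds back vesicles that would carry plasma proteins across the cell, pumps out foreign compounds, and takes up glucose and lipids through dedicated transporters. A nerve lysate contains vessels, perineurium, Schwann cells, fibroblasts and blood, so each value below is a sum over these cell types. In such bulk samples, fewer cells of a type and less RNA per cell cannot be told apart.

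Values are normalised read counts, that is, reads counted on the constitutive regions of a gene and divided by a size factor per library. A single read was worth between 0.727 and 1.27 of these units, and libraries held between 50938349 and 78250094 reads on genes. The targeted gene *Adar* had values of 1602, 2066 and 1133 in controls 1, 2 and 3, and of 11768, 9311 and 9773 in mutants 1, 2 and 3. It was therefore higher in the libraries labelled mutant (log2 fold change 2.72, SE 0.20, adjusted p = 4.1e-05), so this value did not show the deletion. Deleted and remaining segments share a single value here and cannot be told apart, so directions below are drawn from the labels, and the groups are the control-labelled and the mutant-labelled libraries. Endothelial markers were present in every library, with a summed value of the 20 other endothelial genes between 38016 and 51472 in the control-labelled libraries and between 56254 and 66467 in the mutant-labelled ones. Schwann cell markers had a summed value of at least 3580350 in each control-labelled library and 531402, 102447 and 224078 in mutants 1, 2 and 3.

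Of the 10 endothelial and barrier genes, 4 rose and 1 fell at an adjusted p at or under 0.05 (limma, Benjamini-Hochberg over the 25802 tested genes). *Abcb1a*, *Plvap*, *Kdr* and *Cldn1* rose, and *Mfsd2a* fell. Across all tested genes 35% were called at this threshold, 19% higher and 16% lower, and the share of the 10 genes was thus 5 of 10 beside a background of 35%. With the limits stated in the study, a 2-fold difference or more with p at or under 0.05 before adjustment, *Abcb1a*, *Plvap* and *Mfsd2a* remained, 3 of 10 beside 24.2% of all tested genes. Values of the genotypes did not overlap for 6 of the 10 genes, 4 with the mutant-labelled libraries above and 2 with them below, beside 49.2% of all tested genes (25.9% above and 23.3% below). The median log2 fold change of the 10 genes was 0.38, and that of all tested genes was 0.03.

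**Figure D1:**
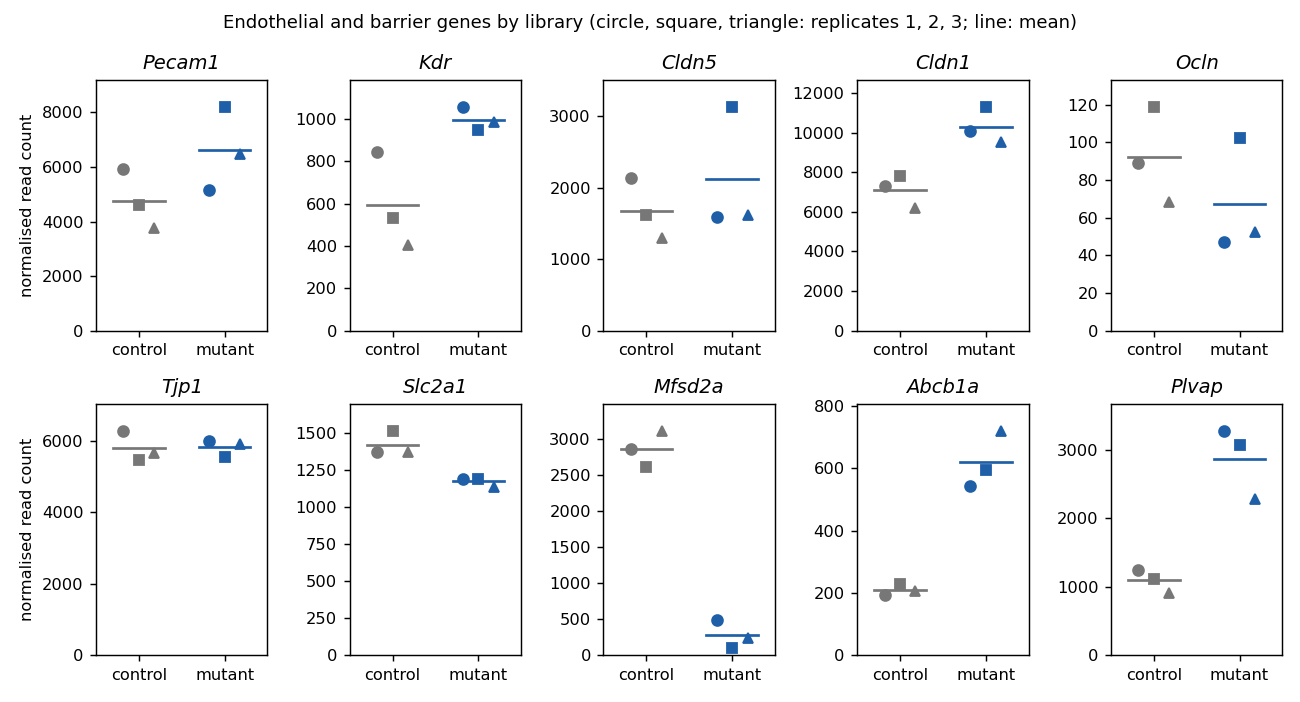
Normalised read count of each of the 10 genes in the 3 control-labelled (grey) and 3 mutant-labelled (blue) libraries. Circles, squares and triangles are replicates 1, 2 and 3 and lines are means. *Mfsd2a* lies between 98.4 and 491 in the mutant-labelled libraries against at least 2609.8 in the control-labelled ones, while *Abcb1a* and *Plvap* lie higher in all 3 mutant-labelled libraries.

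The gene that fell, *Mfsd2a*, and the gene that rose most, *Abcb1a*, are shown first by the sequence around their start sites, together with *Slc2a1*, the other transporter among the 10. Letters run from 250 bases before to 50 bases after the start on the strand of the gene, from RefSeq (GRCm38.p6). Capitals mark ACGTG, the core letters bound by hypoxia-inducible factors, on either strand.
Mfsd2a, chr4:122961139-122961438, minus strand: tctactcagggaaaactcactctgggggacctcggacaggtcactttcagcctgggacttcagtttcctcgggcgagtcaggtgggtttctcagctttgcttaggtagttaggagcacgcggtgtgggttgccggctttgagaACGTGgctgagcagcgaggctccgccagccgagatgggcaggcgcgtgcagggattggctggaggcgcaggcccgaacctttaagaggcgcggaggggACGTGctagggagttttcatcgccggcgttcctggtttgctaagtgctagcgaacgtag
Slc2a1, chr4:119108495-119108794, plus strand: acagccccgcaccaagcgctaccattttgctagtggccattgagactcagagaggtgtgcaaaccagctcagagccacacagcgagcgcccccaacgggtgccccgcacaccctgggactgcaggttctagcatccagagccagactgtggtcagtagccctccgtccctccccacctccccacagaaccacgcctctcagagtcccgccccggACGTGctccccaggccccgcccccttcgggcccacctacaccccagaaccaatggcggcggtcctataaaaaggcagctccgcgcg
Abcb1a, chr5:8566841-8567140, plus strand: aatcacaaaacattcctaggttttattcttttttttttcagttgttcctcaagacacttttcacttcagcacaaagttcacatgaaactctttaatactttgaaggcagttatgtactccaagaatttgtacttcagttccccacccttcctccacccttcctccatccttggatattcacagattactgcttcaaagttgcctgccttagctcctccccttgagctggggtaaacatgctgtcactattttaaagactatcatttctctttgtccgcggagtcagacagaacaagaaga
The *Mfsd2a* window held ACGTG at positions -107 and -9 from the start site and the *Slc2a1* window held it at -36. No match was found in the *Abcb1a* window. Promoter windows of 8 of the 10 genes were found in the table. Of these genes 3 held ACGTG, the third being *Tjp1* at position 43 on the other strand, beside 19.6% of 32851 promoter windows of the same length. None of the windows of these 8 genes held GAAANNGAAA, the element of interferon-stimulated genes (3.44% of all windows), TTCNNNGAA, the element bound by STAT dimers (8.3%), or ATCAAAG, the TCF/LEF element of Wnt signalling (3.73%). These matches describe letters in a window and are not evidence of binding.

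Endothelial identity was followed through *Pecam1* and *Kdr*. *Pecam1* (chr11:106654213-106750629, minus strand, mm10) encodes CD31, an adhesion molecule at endothelial cell borders. Its values were 5909, 4615 and 3745 in controls 1, 2 and 3 and 5161, 8215 and 6467 in mutants 1, 2 and 3. Mutant 1 lay below control 1, so the groups overlapped, and means were 4756 ± 1089 and 6614 ± 1532 (SD, n = 3 each). The log2 fold change of 0.47 (SE 0.20) did not pass the threshold (adjusted p = 0.105, limma), and its 95% interval in folds ran from 1.01 to 1.92. *Kdr* (chr5:75932837-75978461, minus strand) encodes VEGFR2, the main signalling receptor for VEGF-A on endothelium. It had values of 844, 533 and 407 in the control-labelled libraries and 1059, 948 and 984 in the mutant-labelled ones. Every mutant-labelled library lay above every control-labelled one, and *Kdr* rose from 595 ± 225 to 997 ± 56.5 (log2 fold change 0.81, SE 0.25, adjusted p = 0.0331). This call was lost when any library other than control 1 was left out, with log2 fold changes from 0.57 to 1.10 over the 6 omissions. It was also lost in limma without a variance trend (adjusted p = 0.0957) and in edgeR's quasi-likelihood test (adjusted p = 0.0541).

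The other endothelial genes gave the frame for these values. Of 20 genes typical of endothelial cells in general, 6 rose, beside 19% of all tested genes, and 1 fell, beside 16%, and their median log2 fold change was 0.51. With DESeq2, 9 rose and 1 fell. *Eng*, a co-receptor for TGF-beta ligands, rose from 3643 ± 133 to 8417 ± 725 (log2 fold change 1.21, SE 0.09). *Flt1*, the VEGF receptor that also acts as a decoy, rose from 504 ± 41.0 to 1069 ± 57.5 (1.08, SE 0.13). *Mmrn2*, a protein of the endothelial matrix, and *Egfl7*, an angiogenic factor secreted by endothelium, rose by 0.91 and 0.84. *Ecscr*, a cell-surface protein of endothelium named here after its values were seen as the single gene that fell, had a log2 fold change of -0.78. *Cdh5*, the cadherin of endothelial adherens junctions, also named after its values were seen, stood at 6626, 5965 and 4790 in the control-labelled and 6753, 7181 and 5486 in the mutant-labelled libraries (adjusted p = 0.423). The count of called genes in this list depended on control 1: it was 12 without that library. Values centred on the mean of the 20 genes left *Kdr* with a log2 fold change of 0.36 (adjusted p = 0.317) and *Cldn1* with 0.09 (adjusted p = 0.783), whereas *Abcb1a*, *Plvap* and *Mfsd2a* remained past the threshold.

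**Figure D2:**
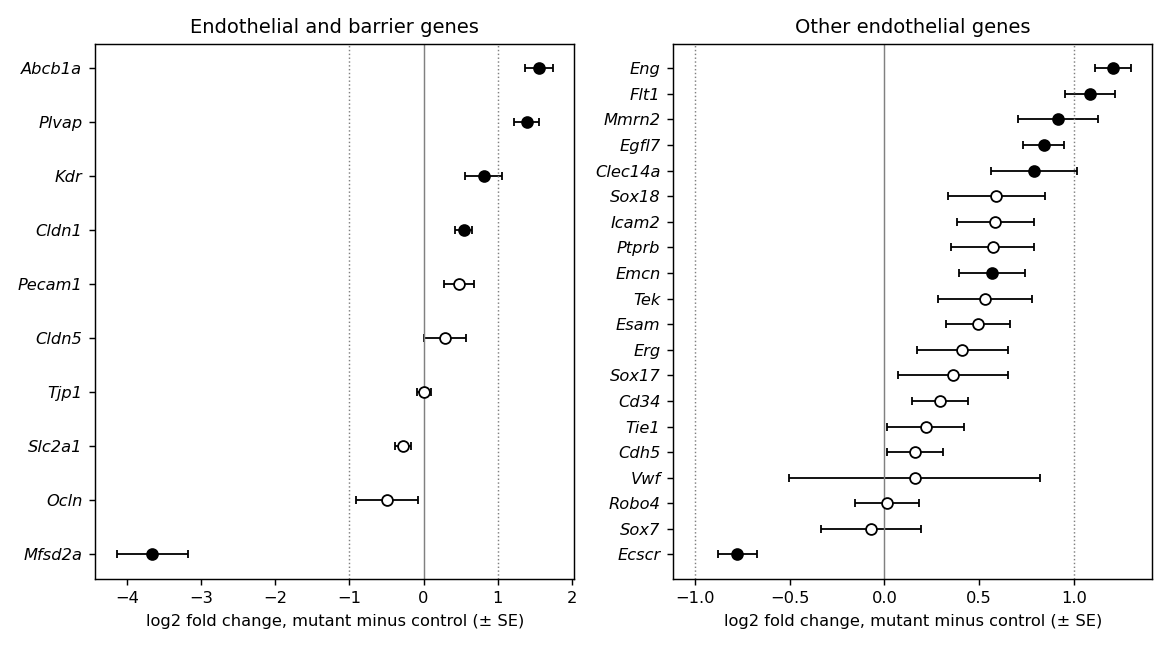
Log2 fold change (mutant-labelled minus control-labelled, ± SE) of the 10 genes on the left and of 20 other endothelial genes on the right, with filled points for an adjusted p at or under 0.05 and dotted lines at a 2-fold change. *Mfsd2a* is at -3.66, while the other endothelial genes run from -0.78 to 1.21.

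The 4 junction genes among the 10 had log2 fold changes between -0.50 and 0.54, and only *Cldn1* passed the test. *Cldn5* (chr16:18776846-18778262, plus strand) encodes the claudin that seals endothelial tight junctions. Its values were 2133, 1618 and 1295 in the control-labelled and 1590, 3138 and 1622 in the mutant-labelled libraries. Mutant 2 stood above all other libraries, and the 2 remaining mutants lay inside the range of the controls. Means were 1682 ± 423 and 2117 ± 884, and the log2 fold change was 0.29 (SE 0.28, adjusted p = 0.465, 95% interval 0.781 to 1.90-fold). Without mutant 2 it was -0.04. Mutant 2 was also the highest library for *Pecam1*, for the summed value of 7 arterial genes (23131, beside 10064 and 14718 in the other mutants) and for that of 14 pericyte and smooth muscle genes (99741, beside 44539 and 64143). The summed value of 7 fat cell genes was highest there too, at 37956 beside 6608 and 12416 in the other mutants and at most 18422 in the control-labelled libraries. The part that these vessel types and fat cells have in the *Cldn5* values was not tested.

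*Cldn1* (chr16:26356648-26371841, minus strand) encodes a claudin that seals the perineurium in nerve and epithelia elsewhere. It had values of 7317, 7808 and 6175 in the control-labelled and 10059.8, 11315 and 9551 in the mutant-labelled libraries. The groups did not overlap, and *Cldn1* rose from 7099.8 ± 838 to 10309 ± 908 (log2 fold change 0.54, SE 0.11, adjusted p = 0.00723). The call was kept in each of the 6 omissions of a library and was lost without a variance trend in limma (adjusted p = 0.0527). Of 6 other perineurial genes, *Moxd1*, a monooxygenase-like protein, rose from 281 ± 69.5 to 2366 ± 206, and *Itgb4*, the integrin chain of basal lamina contacts, fell from 9176 ± 1409 to 2956 ± 134. *Itgb4* is made by Schwann cells as well. The other 4 perineurial genes had log2 fold changes between -0.12 and 0.14, none of which passed the test. Of all tested genes 19% rose and 16% fell.

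*Ocln* (chr13:100496504-100552718, minus strand) encodes occludin, a membrane protein of tight junctions. It was low throughout, with 88.8, 119 and 68.4 in the control-labelled and 47.3, 102.3 and 52.4 in the mutant-labelled libraries. The groups overlapped and between 53 and 126 reads stood behind each value. The log2 fold change of -0.50 (SE 0.42, adjusted p = 0.387) left an interval from 0.366 to 1.37-fold. *Tjp1* (chr7:65296165-65371244, minus strand) encodes ZO-1, the scaffold that ties junction proteins to actin in many cell types. It had values of 6274, 5459 and 5659 in the control-labelled and 5989, 5535 and 5909.7 in the mutant-labelled libraries. The range of the mutant-labelled libraries lay within that of the controls. Its log2 fold change was 0.01 (SE 0.09, adjusted p = 0.973), with an interval from 0.867 to 1.16-fold.

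Larger fold changes stood among the other junction genes. Among 16 other tight junction genes 4 rose and 4 fell, beside 19% and 16% of all tested genes. *Marveld3*, a relative of occludin, fell from 841 ± 116 to 81.3 ± 91.2 (log2 fold change -4.34). *Jam3*, a junctional adhesion molecule, fell from 9725 ± 553 to 4547 ± 814. *F11r*, which encodes JAM-A of endothelial and epithelial junctions, rose from 1131 ± 163 to 2414 ± 431. The number that rose was 2 without mutant 3. Of 27 other claudin genes, 24 were in the table and 16 were tested. Of the tested ones 5 rose and 3 fell, beside the same shares of all tested genes. The first number was 3 without control 1, control 3 or mutant 3, and the second was 5 without mutant 1. *Cldn19*, the claudin of Schwann cell junctions, fell from 133033 ± 12852 to 10499 ± 8118, and *Cldn11*, a claudin of myelin sheaths, fell from 1254 ± 347 to 59.3 ± 14.3. *Cldn23* rose from 2.53 ± 4.39 to 32.9 ± 6.32. *Cldn18*, a claudin of lung and stomach epithelium, was at 0 in all 3 control-labelled libraries and at 11.6, 21.2 and 5.93 in the mutant-labelled ones, which is at least 3.89-fold higher than the value of 3 reads per control-labelled library. That floor takes in the error of counting and nothing else, because copies made by PCR were not told apart by molecular tags.

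A pair of transporters, *Mfsd2a* and *Abcb1a*, held the largest fold changes among the 10 genes, in opposite directions. *Mfsd2a* (chr4:122946855-122961188, minus strand) encodes a transporter that carries lysophospholipids with omega-3 fatty acids across barrier endothelium and keeps vesicle transport there low. It had values of 2862, 2609.8 and 3112 in controls 1, 2 and 3, and 491, 98.4 and 233 in mutants 1, 2 and 3. All mutant-labelled libraries lay far below all control-labelled ones, and *Mfsd2a* fell from 2861 ± 251 to 274 ± 199. The mean of the control-labelled libraries was 10.4 times that of the mutant-labelled ones. The log2 fold change was -3.66 (SE 0.48, adjusted p = 0.000644), and 4.13% of the tested genes had an absolute change as large or larger. The call was kept in all 18 alternatives, with log2 fold changes from -4.23 to -3.07.

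The spread of *Mfsd2a* over libraries was set beside that of other genes. Of 222 genes in the other lists, *Ndrg1* and *Pmp22* had the pattern most like that of *Mfsd2a* once each genotype was centred on its mean. Their Pearson correlations were 0.998 and 0.997 over 6 libraries that share their size factors. Picking the highest of 222 in itself favours high values. *Pmp22*, a myelin protein gene, fell from 1131770 ± 54382 to 112178 ± 76526, and its mutant values of 195117, 44309 and 97107 took the same order as those of *Mfsd2a*. *Ndrg1*, which responds to low oxygen and is needed in Schwann cells for myelin upkeep, fell from 20212 ± 562 to 5265 ± 1412. Of 8 Schwann cell markers 7 fell, beside 16% of all tested genes, and the median over the 8 was -2.66 on the log2 scale. Over all 8 markers the correlation with *Mfsd2a*, centred by genotype, ran from 0.17 for *Cdh19*, named after its values were seen, to 0.997 for *Pmp22*, and the other 6 lay between 0.87 and 0.99. In the controls the summed value of the 8 markers was 3580350, 3995060 and 4388070, lowest in control 1, whereas *Mfsd2a* was lowest in control 2. Centred in the same way, the correlation of *Mfsd2a* was -0.74 with *Pecam1* and -0.77 with *Cldn5*, but 0.11 with *Kdr* and 0.06 with *Plvap*, and over all the others of the 10 it ran from -0.84 with *Ocln* to 0.50 with *Tjp1*. The endothelial genes thus had no common sign. The share of Schwann cell RNA in the *Mfsd2a* values was not tested.

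**Figure D3:**
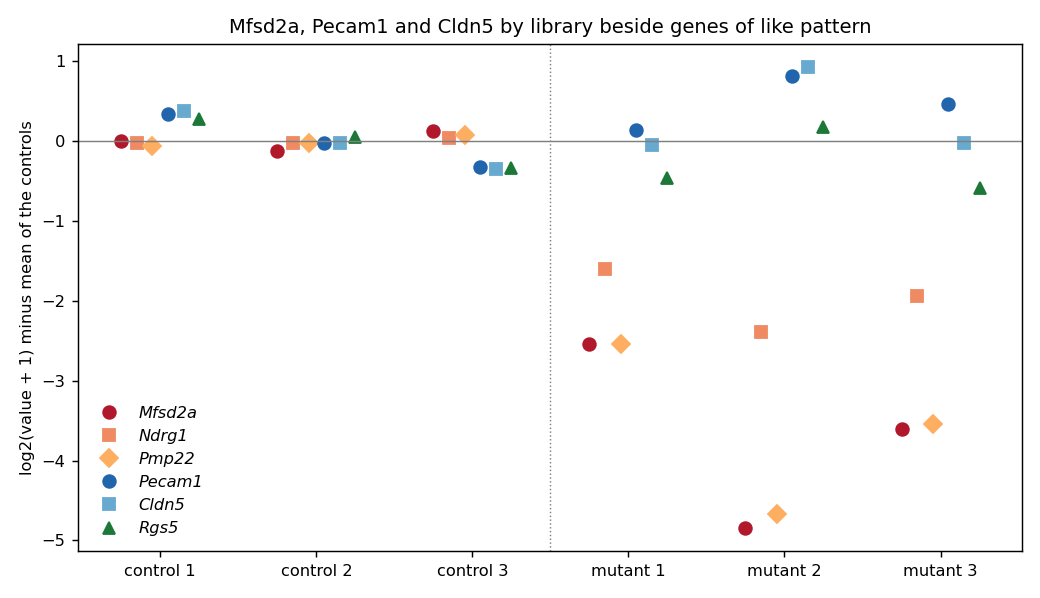
Difference of log2(value + 1) from the mean of the control-labelled libraries for *Mfsd2a*, *Ndrg1*, *Pmp22*, *Pecam1*, *Cldn5* and *Rgs5* in each of the 6 libraries. *Mfsd2a* and *Pmp22* are lowest in mutant 2 and least low in mutant 1, whereas *Pecam1*, *Cldn5* and *Rgs5* are highest among the mutants in mutant 2. *Kdr* (lowest of the mutants in mutant 2) and *Plvap* (highest in mutant 1), not plotted here, took other orders.

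*Abcb1a* (chr5:8567091-8748575, plus strand) encodes P-glycoprotein, the efflux pump of barrier endothelium. Its values were 193, 228 and 205 in the control-labelled libraries and 543, 595 and 720.0 in the mutant-labelled ones. The groups did not overlap, and *Abcb1a* rose 2.97 times, from 209 ± 17.5 to 619 ± 91.1 (log2 fold change 1.56, SE 0.18, adjusted p = 0.000384). The call was kept in all 18 alternatives. Its paralog *Abcb1b*, so close in sequence that reads can be shared between both genes, rose from 161 ± 33.9 to 1565 ± 317 (log2 fold change 3.27). *Rundc3b*, on the other strand over the 5′ part of *Abcb1a*, ranged from 312 to 357 in the control-labelled and from 270.2 to 469.8 in the mutant-labelled libraries. Libraries were made from oriented cDNA, and whether strand was used in the counting is not given in the sources used here.

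*Slc2a1* (chr4:119108745-119137330, plus strand) encodes GLUT1, the glucose transporter of barrier endothelium and of the perineurium. It had values of 1376, 1516 and 1374 in the control-labelled and 1194, 1194 and 1134 in the mutant-labelled libraries. The mutant-labelled libraries were lower without overlap, at 1174 ± 34.1 against 1422 ± 81.3. The log2 fold change was -0.27 (SE 0.11), with an unadjusted p of 0.0336 and an adjusted p of 0.0821 in limma, and it passed only when libraries were rescaled to the same 75th percentile (-0.39, adjusted p = 0.0273) or centred on the endothelial list (-0.72, adjusted p = 0.0373).

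The wider set of barrier transporters moved in both directions. Of 22 further transporters and receptors of barrier endothelium, 6 rose and 8 fell, beside 19% and 16% of all tested genes. Their median log2 fold change was -0.38. *Slco1a4*, an organic anion transporter, fell from 57.7 ± 18.2 to 6.24 ± 8.42, and *Slc38a5*, a glutamine transporter, fell from 162 ± 23.8 to 15.6 ± 5.39. *Slc7a5*, which encodes the large neutral amino acid transporter LAT1, rose from 3108 ± 424 to 19617 ± 2681. *Abcg2*, the other main efflux pump of barrier endothelium and named after its values were seen, rose from 1817 ± 166 to 4626 ± 194. The number that fell was 5 without control 1 and 4 without control 3.

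*Plvap* (chr8:71497754-71511769, minus strand) encodes the protein of the diaphragms that span fenestrae and caveolae, which mature barrier endothelium largely lacks. It had values of 1249, 1114 and 911 in the control-labelled and 3281, 3071 and 2278 in the mutant-labelled libraries. The groups did not overlap, and *Plvap* rose 2.64 times, from 1091 ± 170.2 to 2876 ± 529 (log2 fold change 1.39, SE 0.17, adjusted p = 0.000506), a call kept in all 18 alternatives. Which vessels of the nerve carried this rise cannot be told from bulk values. *Gtpbp3*, which overlaps the 3′ end of *Plvap* on the other strand, ranged from 1476 to 1587 in the control-labelled and from 1383 to 1634 in the mutant-labelled libraries. Among 8 genes of caveolae, *Cav2* and *Cavin3* rose by 0.63 and 0.45 on the log2 scale, and *Cav3*, the caveolin of muscle, rose by 2.67. The count of 3 of 8, beside 19% of all tested genes, became 1 without control 2 and 0 without control 3. Skeletal muscle markers moved in the same direction as *Cav3*: 6 of 9 rose, with a summed value between 6581 and 33464 in the control-labelled and between 42008 and 315858 in the mutant-labelled libraries, and their part in the *Cav3* value was not tested. The number of muscle markers that rose, 6 of 9 beside the same 19%, was 2 without control 2, mutant 1 or mutant 3.

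Ratios within a library set these genes against *Pecam1*. *Plvap* relative to *Pecam1* was 0.92 higher on the log2 scale in the mutant-labelled libraries, *Abcb1a* relative to *Pecam1* was 1.08 higher, and *Mfsd2a* relative to *Pecam1* differed by -4.14. These 3 ratios did not overlap between genotypes, and each reached p = 0.1 in an exact two-sided permutation test, the smallest that 3 against 3 libraries allow (adjusted p = 0.2 over the 6 ratios). With 3 libraries per genotype this exact test cannot place a single ratio under 0.05. Ratios of *Kdr* to *Pecam1* (0.34, exact p = 0.3), *Cldn5* to *Pecam1* (-0.19, exact p = 0.4) and *Cldn1* to *Cldn5* (0.26, exact p = 0.5) overlapped between genotypes.

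Patterns over libraries were compared between genes. With each genotype centred on its mean, *Pecam1* and *Cldn5* had a Pearson correlation of 0.91 over the 6 libraries. Among the 222 genes of the other lists, *Cavin2* (0.987) and *Cav2* (0.986), both of caveolae, were most like *Pecam1*, and *Rgs5* (0.981), a pericyte gene, and *F11r* (0.980) were most like *Cldn5*. *Abcb1a* was most like *Slc38a5* (0.987) and *Adm* (0.962), and *Plvap* was most like *Col3a1* (0.958), a collagen gene of fibroblasts, and *Ephb4* (0.956), a venous gene. The nearest genes of the others came from several cell types. *Kdr* was most like *Krt15* (0.960), an epithelial keratin, and *Clec3b* (0.957), a fibroblast gene, and *Cldn1* was most like *Ptprc* (0.965), a leukocyte gene, and *Cldn15* (0.947). *Ocln* was most like *Msln* (0.975) and *Ptprc* (0.955), *Tjp1* was most like *Marveld2* (0.958) and *Jam2* (0.926), and *Slc2a1* was most like *Cavin3* (0.983) and *Foxf2* (0.947). The libraries share their size factors and tissue makeup with both genes of a pair, so these values are descriptions.

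Levels were compared between genes only per kb of annotated exon. Reads were counted on constitutive regions, while the length takes in all annotated exons, so ranks between genes are approximate. In the control-labelled libraries *Cldn1* was highest at 2187 ± 258 per kb, followed by *Mfsd2a* at 1330.2 ± 117, *Cldn5* at 1188 ± 299 and *Pecam1* at 1151 ± 263, whose ranges overlapped from neighbour to neighbour. *Tjp1* at 815 ± 59.8, then *Plvap* at 549 ± 85.7 and *Slc2a1* at 436 ± 24.95 stood in the middle, of which *Plvap* and *Slc2a1* overlapped. *Kdr* at 100.4 ± 38.0, *Abcb1a* at 41.8 ± 3.50 and *Ocln* at 21.8 ± 6.03 were lowest, without overlap. In the mutant-labelled libraries *Cldn1* was again highest at 3175 ± 280, followed by *Pecam1*, *Cldn5* and *Plvap* with overlapping ranges at 1600.3 ± 371, 1495 ± 625 and 1448 ± 266. *Mfsd2a* at 128 ± 92.7 per kb took a place among the low genes there, with a range that overlapped *Kdr* at 168 ± 9.53 and *Abcb1a* at 124 ± 18.2. *Mfsd2a* thus went from rank 2 to rank 8 and *Plvap* from rank 6 to rank 4.

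Genes that mark activated endothelium were followed beside these. Their values are sums over all cell types of the nerve, so a change cannot be placed in endothelium. Of 8 adhesion and activation genes of inflamed endothelium, 6 rose and 1 fell, beside 19% and 16% of all tested genes. Their median log2 fold change was 3.09. *Vcam1*, an adhesion molecule for leukocytes that other stromal cells make as well, had values of 1105, 869 and 783 in the control-labelled and 12141, 9011 and 12454 in the mutant-labelled libraries. *Sele*, the selectin of activated endothelium, rose from 11.2 ± 2.23 to 127 ± 45.0. *Madcam1*, an addressin for lymphocytes, rose from 18.9 ± 7.11 to 464 ± 119, and *Lrg1*, a secreted glycoprotein of inflamed vessels, rose from 28.5 ± 29.8 to 846 ± 376. *Ackr1*, the chemokine-binding receptor of venules, fell from 2294 ± 197 to 926 ± 254.

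Growth factors for vessels were the next list. Of 14 tested genes of the VEGF and angiopoietin families and of tip cells, 7 rose and 2 fell. Of all tested genes 19% rose and 16% fell. *Vegfa*, the ligand of the receptors encoded by *Kdr* and *Flt1*, had values of 4191, 3250.5 and 3122 in the control-labelled and 15828, 13678 and 17075 in the mutant-labelled libraries (log2 fold change 2.15, SE 0.14, adjusted p = 1.8e-05). *Vegfd*, a ligand for lymphatic and blood vessels, rose from 353 ± 68.2 to 1371 ± 415, and *Angpt1*, the ligand that stabilises vessels through the receptor TIE2, rose from 65.4 ± 22.6 to 444 ± 86.2. *Nrp2*, a co-receptor of venous and lymphatic endothelium that Schwann cells and neurons also make, fell from 7154 ± 152 to 1801 ± 273. Of 10 genes known to respond to low oxygen, 2 rose and 4 fell, beside the same shares of all tested genes. Among them were *Adm*, which encodes a vasodilating peptide (log2 fold change 1.69), *Pfkfb3*, a regulator of glycolysis (1.57), *Ankrd37* (-1.69) and *Ndrg1* (-1.98).

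The Wnt pathway induces and maintains barrier properties in brain endothelium. Of 17 tested genes of that programme, 6 rose and 3 fell, beside 19% and 16% of all tested genes. Their median log2 fold change was 0.12. *Lef1*, a transcription factor that carries the Wnt signal, rose from 62.5 ± 16.1 to 438 ± 125, and *Tnfrsf19*, a receptor and Wnt target also called TROY, rose from 17.1 ± 8.33 to 411 ± 360. *Foxf2*, a transcription factor of pericytes and mesenchyme, rose from 22.1 ± 16.3 to 173 ± 36.5. *Nkd1*, an inhibitor that Wnt signalling induces, fell from 2933 ± 704 to 1037 ± 148.

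Arterial, venous, mural and lymphatic genes were followed in the same way. The adjusted limma counts with all libraries below stand beside 19% of all tested genes that rose and 16% that fell. No arterial gene of the 7 listed passed the adjusted test in limma (median 0.78 on the log2 scale). At an unadjusted p at or under 0.05 the count was 3, with edgeR it was 0 and with DESeq2 it was 1, all higher. In limma it was 2 without control 1 and 3 without mutant 1. Among 6 venous genes, *Nrp2* and *Ackr1* fell. Of 14 genes of pericytes and smooth muscle, *Tagln*, an actin-binding protein of smooth muscle, rose from 4759 ± 2909 to 15270.2 ± 7053 with overlapping groups, and *Vtn*, which encodes vitronectin, fell from 4247 ± 1122 to 1258 ± 151. The number that rose in this list ran from 0 to 4 when a library was left out. Among 7 lymphatic genes, *Pdpn*, which encodes podoplanin, and *Flt4*, which encodes VEGFR3, rose by 1.20 and 1.003, and *Reln*, also made by Schwann cells, had a log2 fold change of -2.20. The rise of 2 lymphatic genes was a rise of 1 without control 2, control 3, mutant 2 or mutant 3, and of 4 without control 1. Red blood cell genes fell in 6 of 7 cases, with a summed value between 55078 and 77130 in the control-labelled and between 5151 and 15734 in the mutant-labelled libraries. This sum moved with genotype beside every vessel gene above, and its part in their values was not tested. Of 8 fibroblast genes, *Col1a1*, *Col1a2* and *Col3a1*, which encode fibrillar collagens, fell. Of 8 macrophage genes, *Ptprc*, *Aif1* and *C1qa* rose, and *Mrc1* and *Csf1r* fell. No fat cell gene of 7 was called with all libraries by limma, at an unadjusted p at or under 0.05 either, or by edgeR or DESeq2, and 1 rose without control 1. Of 8 epithelial genes *Dsp*, which encodes desmoplakin, rose, and the count was 2 without control 1 or mutant 2. Log2 fold changes of the 8 ran from 0.60 to 4.12, with a median of 2.76. Their summed value was 318 to 605 in the control-labelled and 773 to 1013 in the mutant-labelled libraries. Their part in the values of *Cldn1* and the other claudins was not tested.

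**Figure D4:**
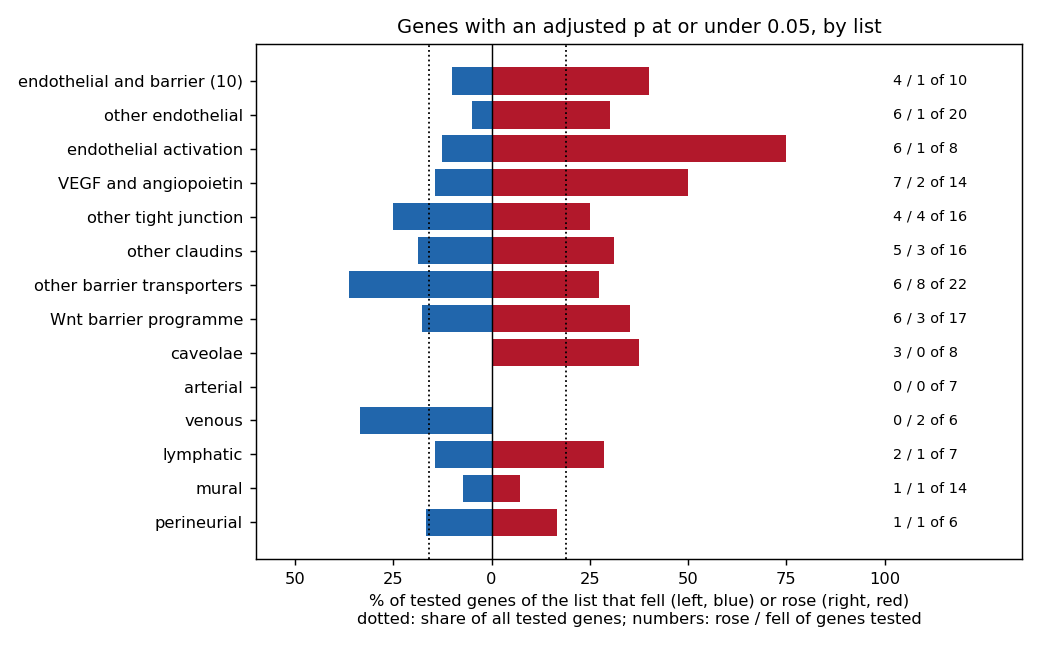
Share of tested genes in each list that fell (left, blue) or rose (right, red) at an adjusted p at or under 0.05, in percent, with the numbers at the right and dotted lines at 16% and 19%, the shares of all tested genes. Activation genes rose in 6 of 8 cases, while no arterial gene passed the test.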

How the data were processed

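RNA-seq libraries of P4 sciatic nerves, 3 of each genotype, were made by the authors from poly-A RNA as oriented cDNA. Reads were mapped with STAR 2.4.0 to mm10 and counted per FAST DB gene. The deposited signal per gene and library is that count divided by a DESeq size factor; 100% of values were whole multiples of a single read within 0.01 of a read, so reads were recovered for edgeR and DESeq2.

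Groups were taken from the labels. log2(value + 1) was fitted with limma (lmFit, eBayes with trend) as mutant minus control over the 25802 genes with a mean of at least 10 in at least 1 genotype, with Benjamini-Hochberg adjustment over all of them. A fold change on this scale understates that of low genes. The 10 genes and the 21 other lists were chosen with earlier results of these data known. Named genes are all 10, *Adar*, the 2 most alike genes per member, and up to 4 called genes per list with the largest change (all where 5 or fewer were called). Exon lengths came from GENCODE M21, and older symbols were matched through RefSeq.

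Alternatives were pseudocounts of 0.1 and 10, other filters, 4 other scalings, eBayes without trend, edgeR, DESeq2, a replicate block, and leaving out each library. Protein sequences were not used here, and the value of 1 listed gene is not reported here. R 4.3.3, limma 3.58.1, edgeR 4.0.16, DESeq2 1.42.0, data.table (version 1.17.8), Python 3.11.15, numpy 2.4.6 and matplotlib 3.10.9 were used.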

Additional observations from a re-analysis of the deposited data

How the results depend on the processing

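*Mfsd2a*, *Abcb1a* and *Plvap* kept their direction and their call in all 18 alternatives. Past the limits of the study, 2 of the 10 genes were left when centred on the endothelial list, where *Plvap* was at 0.94, and 4 without control 1, where *Kdr* was at 1.10. Without a variance trend in limma, 3 of the 10 genes and 4 of the 20 other endothelial genes were called, beside 6999 of the 25802 tested genes. Leaving out a library gave between 4 and 6 called genes of the 10 and between 5 and 12 of the 20, the latter number being 12 without control 1, which also took *Pecam1* past the threshold. Over these omissions between 6744 and 8275 of all tested genes were called. *Tjp1* changed sign at the same 75th percentile (-0.11), when centred on the endothelial list (-0.44) and in 4 of the 6 omissions (-0.037 to 0.063), and *Cldn5* did so when centred on that list (-0.16) and without mutant 2 (-0.037 to 0.47 over the omissions). Rescaling to the same total moved the median of all tested genes to 0.20 and took *Pecam1* past the threshold (log2 fold change 0.64). Centring on the endothelial list moved that median to -0.42. Of genes within the limits of the study, 33% were then higher in mutant-labelled libraries, beside 57.3% before, 66.4% at the same total and 50.3% at the same 75th percentile. The deviations of same-numbered libraries had correlations of -0.06, -0.06 and 0.01, so no shared deviation was seen. With 3 libraries per genotype these values cannot settle whether the samples are paired. With the replicate block, 5 of the 10 genes, 3 past the limits of the study and 7 of the 20 were called, as without it, and 7730 of all tested genes instead of 9040. The block gave 2 pericyte and smooth muscle genes that rose and 1 lymphatic gene. The cause of these shifts was not tested.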
